A study of Homo sapiens with 2 samples.

Results

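The GALNT genes encode the enzymes that start mucin-type O-glycosylation, and 20 of the 13864 genes with a symbol on these arrays carry a platform symbol beginning with GALNT. Of these, 19 belong to the enzyme family by symbol and are called enzyme genes or isoenzymes below, and 1, GALNT9-AS1, is an antisense RNA. Whether each product is an active enzyme was not tested. The genes were taken by symbol alone, but the family was singled out because GALNT1 and GALNT3 were known from these arrays to differ in opposite directions, so their differences are given as a description and tested nowhere. RNA came from PC3, a line of androgen-independent human prostate cancer cells from a bone metastasis that lack functional p53. In 1 derivative of PC3 a control microRNA was stably overexpressed, in the other miR-95, and both were kept in medium with serum. The labels name neither the vector nor the promoter that drives each microRNA, nor do they say whether a derivative is a clone or a pool. Each derivative was measured on 1 Affymetrix gene array, so the values below have no replicate error, no test and no p-value, and they describe these 2 arrays.

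A GALNT enzyme sits in the Golgi and moves N-acetylgalactosamine (GalNAc) from the sugar nucleotide UDP-GalNAc onto a serine or threonine of a passing protein. Other transferases then lengthen and cap that sugar into the chains that cover mucins and many receptors and secreted proteins. The isoenzymes overlap in the peptides they use, yet some sites depend on a single one, and some isoenzymes act mainly on peptides that already carry a GalNAc. Chains left short after initiation, such as the Tn antigen, are common on carcinoma cells.

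The sequences of the overexpressed microRNA are shown because its seed, bases 2 to 8 from the 5′ end and in capitals here, sets which transcripts it pairs with. They are credited to RefSeq on GRCh38.p14, where the MIR95 locus lies on the minus strand of chromosome 4. The 3p arm is encoded at chr4:8005312-8005333 and the 5p arm at chr4:8005347-8005367.
hsa-miR-95-3p: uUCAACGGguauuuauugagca
hsa-miR-95-5p: uCAAUAAAugucuguugaauu
The arms share no seed. A transcript site that pairs with the whole seed would read CCGUUGA for the 3p arm and UUUAUUG for the 5p arm. The labels do not say which arm the overexpressed construct yields. No 3′ untranslated sequence was used, so GALNT transcripts were not searched for either site. No probe set used here named MIR95, so the overexpression itself was not checked.

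The deposited values are on a log2 scale, and every difference below is miR-95 minus control in log2 units. The arrays were close to each other (Pearson's r = 0.9959 across 23641 probe sets, which are not independent replicates). A gene was called detected when the larger of its readings reached the median over genes of the array it came from, 7.46 on the control array and 7.495 on the miR-95 array. This left 7077 genes with a median difference of 0 and a robust SD of 0.148. In 68 detected genes with several probe sets, the difference of the dimmest probe set was set against that of the brightest. The scaled median absolute gap, divided by the square root of 2, gave a spread of 0.121 per probe set. This spread holds no variation between cultures. Of the epithelial markers, 6 of 7 were measured and all 6 were detected, between 7.81 (KRT8) and 11.44 (CLDN3), both on the miR-95 array. Of 6 markers of androgen-dependent luminal prostate cells, the 3 measured (KLK2, KLK3 and FOLH1) lay below detection. Of the fibroblast markers, 2 of 6 were measured and neither was detected. DCN read 2.90 and 2.76, and LUM read 7.33 on the control array and 6.04 on the miR-95 array. The measured endothelial and leukocyte markers (2 of 4 and 2 of 5) differed by between -0.01 and 0.32, and KDR and CD68 were the detected ones. The part of these markers in the GALNT differences was not tested. In bulk RNA, fewer cells of a type and less RNA per cell cannot be told apart.

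Of the 19 enzyme genes, 9 were detected and 10 were not. The detected ones were GALNT1, GALNT2, GALNT3, GALNT6, GALNT7, GALNT10, GALNT11, GALNT14 and GALNT18. At least a 1.5-fold difference was seen in 2 of these 9, GALNT1 upwards and GALNT3 downwards, while 1.16% of all 7077 detected genes passed that limit (0.523% higher and 0.636% lower on the miR-95 array). These 2 genes prompted the choice of the family, so nothing is read from that share. The median difference of the 9 was -0.08, with 6 negative and 3 positive, against a median of 0 over all detected genes. That both signs occur was known when the family was chosen, and of all detected genes 48.0% were negative and 49.3% positive. Each of the 20 GALNT genes was read by 1 probe set, so none has a second reading on the same array.

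**Figure D1:**
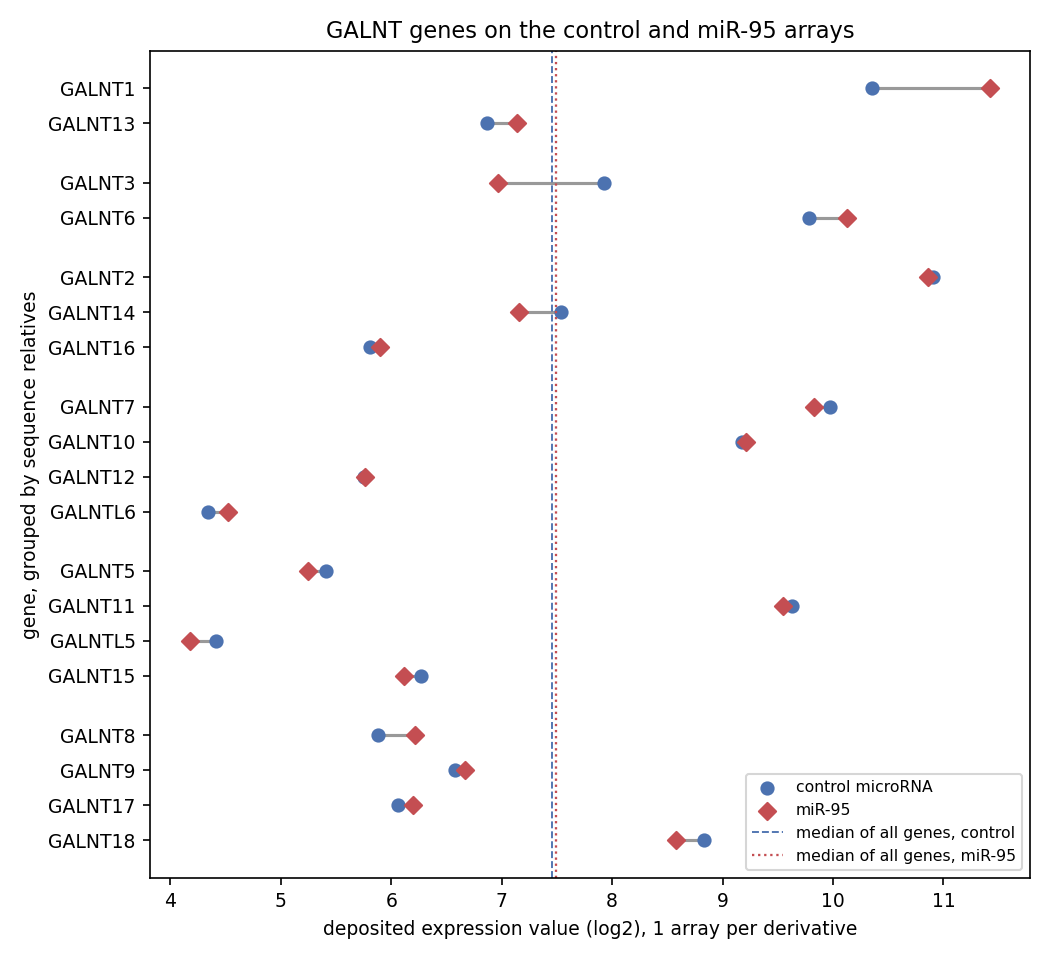
Deposited log2 value of each of the 19 GALNT enzyme genes on the control array (circles) and the miR-95 array (diamonds), joined by a line and grouped by sequence relatives, with the medians of all genes as vertical lines at 7.46 and 7.495. GALNT1 is higher and GALNT3 lower on the miR-95 array, and 10 genes lie below the medians on both arrays.

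GALNT1, a broadly expressed isoenzyme that acts on many substrates, read 10.35 on the control array and 11.42 on the miR-95 array (probe set 16851933). The miR-95 array was 2.10-fold higher, a difference of 1.07. This was the largest positive difference of the 7077 detected genes, ahead of TP53INP1 at 0.94, and GALNT1 was the only detected gene past 2-fold in either direction. Over all 13864 genes with no filter it stood at percentile 99.96 and was not the highest. Among the 2357 brightest detected genes, to which GALNT1 belongs, the robust SD of the differences was 0.133 and 0.764% of genes passed 1.5-fold. GALNT1 was singled out for its difference on these arrays, so nothing is read from its place or from that share. GALNT13, the closest relative of GALNT1 in sequence and best known from neural tissue, read 6.87 and 7.14. Its difference of 0.27 has the same sign, but both values lie below the array medians.

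GALNT3, whose best known role is to glycosylate the hormone FGF23 and shield it from cleavage, read 7.93 on the control array and 6.97 on the miR-95 array (probe set 16904551). The miR-95 array was 1.95-fold lower, a difference of -0.96. It shared the largest negative difference of the detected genes with EIF5A2, while LUM, below detection, differed by -1.29. GALNT3 entered the detected genes by its control reading alone, since its miR-95 value lies under that array's median. Over the 2365 dimmest detected genes, among which it lies, the robust SD was 0.163 and 1.65% passed 1.5-fold. The filter favoured a lower miR-95 value, and GALNT3 was singled out for its difference. Nothing is therefore read from its place among detected genes or from that share. GALNT6, the closest relative of GALNT3 in sequence and known for glycosylating fibronectin, went the other way. It read 9.78 on the control array and 10.13 on the miR-95 array, 1.27-fold higher, a difference of 0.35. The differences of these paired relatives were 1.31 apart. That gap includes the -0.96 for which GALNT3 was singled out, so nothing is read from its size. GALNT6 by itself stayed under the 1.5-fold limit. GALNT6 was above the medians on both arrays, and its difference lies outside the central 90% of detected genes (-0.29 to 0.30).

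**Figure D2:**
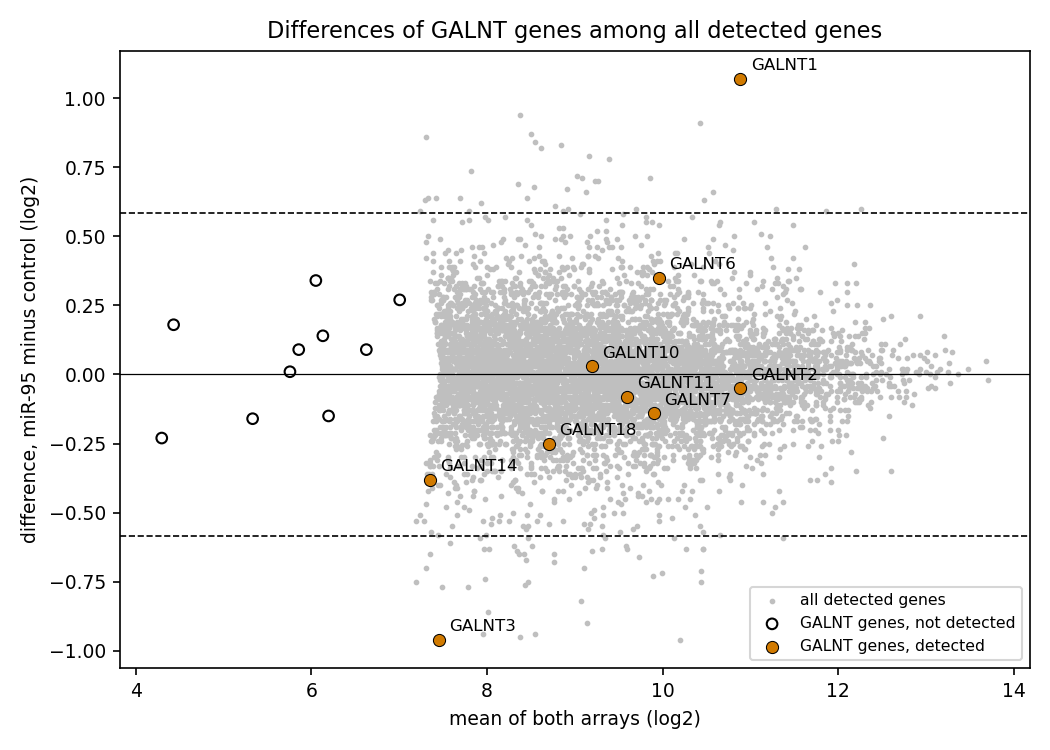
Difference between the arrays (miR-95 minus control, log2) against the mean of both arrays for all 7077 detected genes (grey) and the 19 GALNT enzyme genes (detected filled, others open), with dashed lines at 1.5-fold. GALNT1 at 1.07 lies above every grey point and GALNT3 at -0.96 lies at the lower edge, and the other 7 detected GALNT genes lie between the dashed lines.

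Among GALNT2 and its relatives, GALNT14 had the widest gap between the arrays. GALNT2, a widely expressed isoenzyme that glycosylates the phospholipid transfer protein PLTP, read 10.91 and 10.86. This difference of -0.05 is below the 0.121 spread per probe set. GALNT14, reported to glycosylate the TRAIL death receptors, read 7.54 on the control array and 7.16 on the miR-95 array, 1.30-fold lower. It lies just inside the detection limit, through the control array alone, so the filter favoured a lower miR-95 value, and nothing is read from the place of its difference of -0.38 among detected genes. GALNT16 read 5.81 and 5.90, below both medians.

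Of the isoenzymes that prefer peptides already carrying GalNAc, GALNT7 and GALNT10 were detected. GALNT7 read 9.97 and 9.83, a difference of -0.14 that is near the robust SD of 0.148 over all detected genes. GALNT10 read 9.18 and 9.21, a difference of 0.03. GALNT12, an isoenzyme known from colon, read 5.75 and 5.76, and GALNTL6 read 4.34 and 4.52, a difference of 0.18. Neither was detected. The sign of GALNT10 and of GALNT12 turns negative when each array is centred on its median, at -0.005 and -0.025, and GALNT12 also lies just below 0 after quantile or loess scaling. GALNT4, of this same group, has no symbol of its own here. The probe set annotated to the read-through gene POC1B-GALNT4, which is not a member by symbol and is given for completeness, read 9.14 and 8.99, a difference of -0.15, and cannot separate GALNT4 from the joined transcript.

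GALNT11, which glycosylates linkers in megalin and related receptors, read 9.63 and 9.55, a difference of -0.08. GALNT5 read 5.41 and 5.25, and GALNT15 read 6.27 and 6.12. GALNTL5, a testis gene, read 4.41 and 4.18. The last 3 of these were not detected.

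The remaining isoenzymes, GALNT8, GALNT9, GALNT17 and GALNT18, form a branch of their own. GALNT18 was its only detected member and read 8.83 on the control array and 8.58 on the miR-95 array, a difference of -0.25 that lies inside the central 90% of detected genes. GALNT8 read 5.88 and 6.22, a difference of 0.34 between values below both medians. GALNT9 read 6.58 and 6.67, and GALNT17 read 6.06 and 6.20. GALNT9-AS1, annotated as antisense to GALNT9, read 6.73 and 6.89, likewise below detection.

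Across the 10 undetected isoenzymes the differences ran from -0.23 to 0.34 (7 positive, 3 negative), and 0 of them passed 1.5-fold. Over all 13864 genes with no filter on brightness, 1.26% passed 1.5-fold. Of these 10, GALNT13 came nearest to detection, with 7.14 against the miR-95 median of 7.495. Brightness also reflects how well each probe set binds its target, so these readings do not rank the isoenzymes by abundance.

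GALNT1 and GALNT3 were compared with the measured genes next to them on the chromosome in the RefSeq table. INO80C and MIR187, on the sides of GALNT1, differed by -0.09 and 0.20, with MIR187 below detection. CSRNP3 and the uncharacterised LOC100506124, on the sides of GALNT3, differed by 0.09 and 0.14, with the latter below detection. All 4 neighbours stayed under 1.5-fold, a limit that only 1.26% of all 13864 genes passed, so nothing is read from this count.

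Likeness to GALNT1 and GALNT3 was measured over only 2 arrays, as the distance between pairs of log2 readings. The detected genes nearest to GALNT1 were EFNB1 (difference 0.50), ATL3 (0.55) and BAG3 (0.45), at distances of 0.417, 0.424 and 0.453. Those nearest to GALNT3 were FNIP2 (-0.77), RRAGD (-0.65) and ARL14EPL (-0.58), at distances of 0.143, 0.257 and 0.269. The distance includes the brightness of each probe set, so genes with a difference closer to that of GALNT1, such as TP53INP1, are farther away by it.

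Parts of the O-glycosylation pathway and other related genes were set beside the family from 7 lists. Of their 49 detected members 0 passed 1.5-fold. Only 1.16% of all detected genes did, so nothing is read from this count. Genes that supply UDP-GalNAc had a median of -0.20, and the 5 measured members (of 10) were all detected and all negative, where 48.0% of all detected genes were negative. With detection at the 75th percentile the median was -0.07, over fewer genes. GNPNAT1, which acetylates glucosamine 6-phosphate, read 12.11 on the control array and 11.72 on the miR-95 array, a difference of -0.39. GALK2, which phosphorylates free GalNAc for salvage, differed by -0.30. GFPT1, the rate-limiting enzyme of the hexosamine pathway, and UAP1, which forms the sugar nucleotide, differed by only -0.05 and -0.07.

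For the step after initiation little could be read. Of 16 genes that extend and cap O-GalNAc chains, C1GALT1C1 alone was measured. It encodes the chaperone Cosmc, needed for the core 1 enzyme, and read 8.58 and 8.65. Of 28 mucins and mucin-domain proteins, 10 were measured and 2 detected. PODXL, the sialomucin podocalyxin, read 9.44 on the control array and 9.94 on the miR-95 array, 1.41-fold higher, and its relative PODXL2 differed by 0.03. Reported substrates of single isoenzymes had 9 of 13 measured and 4 detected, with a median of 0.15. PLTP, a GALNT2 substrate, read 11.34 and 11.60, a difference of 0.26, and the receptor EGFR differed by 0.17. FGF23, the GALNT3 substrate, lay below detection at 6.24 and 5.96.

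The initiators of other kinds of protein O-glycosylation were mostly positive. Of 17, 16 were measured and 15 detected, with differences from -0.19 to 0.43 and a median of 0.07. Of the 15, 12 were positive and 3 negative, where 49.3% of all detected genes were positive. The median is below the 0.121 spread per probe set and was 0.035 after median centring. The 7 detected GALNT genes other than GALNT1 and GALNT3 ran from -0.38, for GALNT14, to 0.35. A range widens with the number of genes, so the widths were not compared. The highest initiator was POGLUT1, which adds O-glucose to EGF repeats such as those of Notch, at 8.38 and 8.81. POGLUT2, a related enzyme, and POFUT2, which adds O-fucose to thrombospondin repeats, each differed by 0.31. The lowest were TMTC2, an O-mannosyltransferase of cadherins, at -0.19 and the collagen galactosyltransferase COLGALT1 at -0.13.

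Transferases that attach GalNAc to other acceptors went both ways, with 6 of 14 measured, 5 detected and a median of 0.08. CSGALNACT2, which starts chondroitin chains, differed by -0.23. With detection at the 75th percentile CSGALNACT2 alone was left, so no list median is read there. CHPF2 and CHPF, of the chondroitin polymerase, differed by 0.27 and 0.24. Genes that hold enzymes in the Golgi and carry them back through it stayed close to 0. Of 27, 18 were measured and 17 detected, with a median of -0.02 and differences from -0.21 for COG5 to 0.16 for COG1 and GOLGA2, the COG subunits and the golgin GM130. The coat protein gene ARCN1 and GOLPH3, which retains glycosyltransferases, differed by -0.03 and -0.04.

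**Figure D3:**
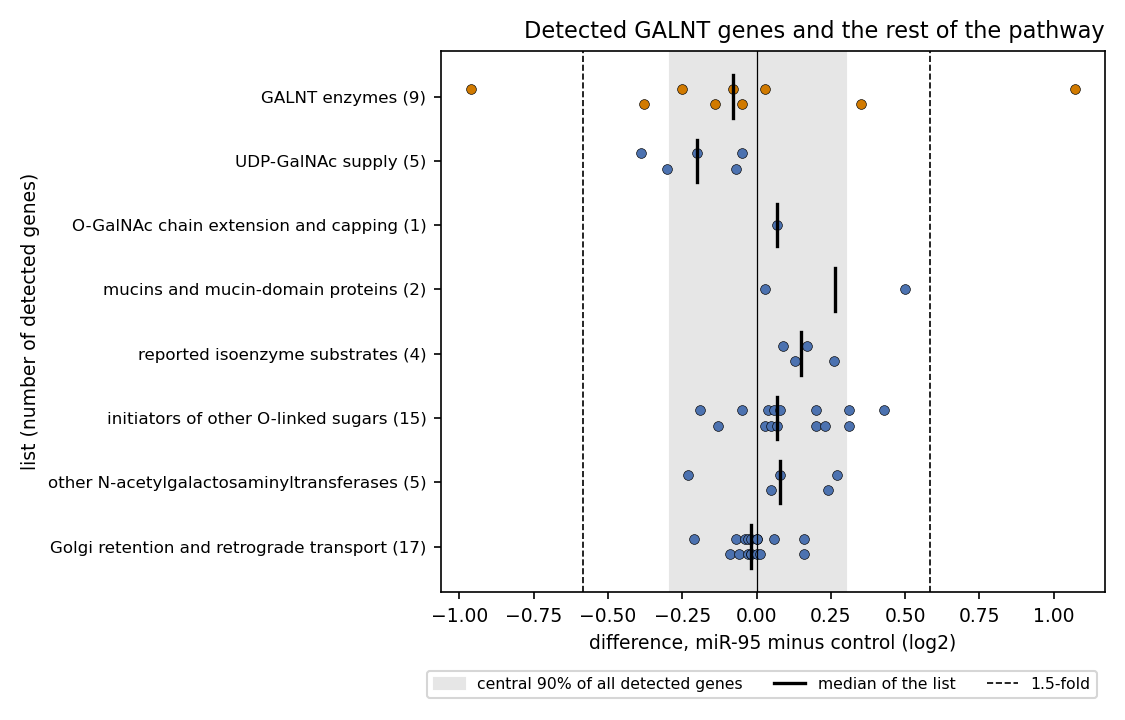
Difference between the arrays (miR-95 minus control, log2) of each detected member of the GALNT family and of 7 lists of related genes, with the number of detected members in brackets, the list median as a bar, the central 90% of all detected genes shaded (-0.29 to 0.30) and 1.5-fold as dashed lines. GALNT1 and GALNT3 are the only points outside the dashed lines. Both were singled out for their differences on these arrays, so nothing is read from this contrast with the lists.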

How the data were processed

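Total RNA from 2 PC3 derivatives was hybridised to 1 array each. The authors deposited log2 values for 23641 probe sets, to 2 decimals each. Their range set the scale as log2, and Affymetrix Expression Console 1.2 is named, per the submitters' processing notes. Summarisation, scaling, filters and genome build: not given in the sources used here. From percentile 1 to 99 the columns' quantiles were within 0.04 of each other, so the deposited values were used without further scaling. A shift common to all transcripts could not be seen on such a scale. Platform annotation named 14088 probe sets (59.6%), and the other 9553 entered no gene comparison. Symbols came from RefSeq (GRCh38.p14) through Entrez identifiers, all 14088 of which matched. Probe sets of a gene were averaged. With 1 array per group no test was possible, and the number of arrays limits the precision.

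The members, lists and limits were chosen with earlier results of these data known. Named were every GALNT gene, the detected members with the largest differences of each list (2 each way at most), the 3 detected genes nearest to GALNT1 and GALNT3 in the plane of both readings, and their chromosomal neighbours. EIF5A2, TP53INP1, POC1B-GALNT4, FGF23 and other list members at small differences or below detection were named outside that rule, after their values were seen. A planned comparison of protein sequences was not run because no protein sequences were used here. The steps, in Python 3.11 with pandas 2.3.3 and statsmodels 0.14.6, were tested on simulated data. The alternatives were median centring, quantile and loess (span 0.4) scaling, an offset of 32 on the linear scale, the brightest probe set, detection at the 25th or 75th percentile or without a filter, and a lower (0.32 log2 units) and a higher (2-fold) limit.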

Additional observations from a re-analysis of the deposited data

How the results depend on the processing

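GALNT1 lay between 1.035 and 1.07 under the 5 alternatives of scaling, offset and probe set choice, and GALNT3 between -0.995 and -0.81, so both stayed past 1.5-fold. The value of -0.81 came with the offset of 32, which by construction shrinks differences of dim genes. Of the 19 enzymes, 10 had a positive difference as deposited and 8 after median centring. Only 1 detected member was higher and 1 lower at 1.5-fold. With a lower limit of 0.32 log2 units these counts were 2 and 2, GALNT6 and GALNT14 joining, and at 2-fold they were 1 and 0. With detection at the 75th percentile the count of lower members was 0, since GALNT3 is too dim to enter. At that percentile the list median was -0.07 for UDP-GalNAc supply, over fewer genes. The list of mucins and mucin-domain proteins then held PODXL alone, at 0.50. That of other N-acetylgalactosaminyltransferases held CSGALNACT2 alone, at -0.23. The mucin list had a median of 0.08 with detection at the 25th percentile and 0.115 with no filter. The other 88 of 98 recomputed values of the main results stayed within the spread of 0.121 or, for counts, within 1.5 times. No paired analysis was possible because each group holds 1 array. Readings below the array medians limit what can be said of 10 of the 19 enzymes.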
